A study of Astyanax mexicanus with 26 samples.

Results

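In the liver of *Astyanax mexicanus*, the Mexican tetra, 8165 of 140810 H3K27ac regions (5.80%) carried the acetyl mark in both cave morphs, lacked it in surface fish, and held neither H3K4me3 nor H3K27me3 in any morph. They are the enhancer-like regions of the cave pair. They were found by joining overlapping or touching H3K27ac peaks of the surface, Pachón and Tinaja lists into union regions. A region was kept where a Pachón and a Tinaja H3K27ac peak lay in it, no surface H3K27ac peak did, and no H3K4me3 or H3K27me3 peak of any of the 3 morphs overlapped it. The members were chosen by presence in or absence from these lists, so their number and their lack of the other marks describe the choice and support nothing.

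The groups are livers of adult surface fish, of Pachón cave fish and of Tinaja cave fish, with no treatment or allele named in the labels, which also do not say whether libraries came from separate fish. For every immunoprecipitation, 200000 cells fixed in 1% formaldehyde for 15 min were used with 1 µg of antibody, and 50 bp single reads were sequenced. H3K27ac had 2 libraries in surface, 2 in Pachón and 3 in Tinaja, as did H3K4me3, and H3K27me3 had 2 in each morph. One list of peak positions per morph and mark was deposited, which combines the replicates, so there was no spread between replicates to test a difference against. Exact binomial intervals at 95%, and order-statistic intervals of medians at 95%, cover counting error only. Regions that lie side by side share signal, which these intervals do not count.

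Enhancers are stretches of DNA that bind transcription factors and raise transcription of a gene that may lie far away. Acetylation of histone H3 at lysine 27 marks active enhancers and active promoters, trimethylation at lysine 4 marks promoters, and trimethylation at lysine 27 is set by Polycomb complexes at silenced genes. An H3K27ac peak without H3K4me3 is the usual sign of an active distal enhancer. In the liver such enhancers accompany the genes of lipid, sugar and bile acid metabolism. Cave morphs of this species are known for insulin resistance, fat storage and survival of long fasts, which is why their livers are compared with those of surface fish. The lists give no gene names, and the gene table used here is of another build, so no gene is assigned to any region.

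The lists limit what absence means. The surface H3K27ac list held 70089 peaks, the Pachón list 93527 and the Tinaja list 117125, with unknown read depth, so a missing surface peak is an absence from the shortest list. The H3K4me3 list of Tinaja, with 136219 peaks, was the longest of the 9, against 56323 in surface and 64432 in Pachón. The H3K27me3 lists were near equal, at 97948 to 99370 peaks. Library number 1934 was shared by H3K27ac libraries of Pachón and Tinaja, and both surface H3K27ac libraries had number 1930. For H3K4me3 the numbers were the same, with 1930 in surface, 1889 and 1934 in Pachón, and 1934 and 2005 in Tinaja. For H3K27ac and H3K4me3, library number and the contrast of caves with surface can therefore not be told apart. All H3K27me3 libraries of the 3 morphs had number 2399.

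With all lists in use, most cave-pair H3K27ac regions overlapped a promoter or Polycomb mark of some morph, much as H3K27ac regions did in general. The cave pair shared 21846 H3K27ac regions that surface lacked, which is 15.5% of all H3K27ac regions. H3K4me3 of some morph overlapped 11280 of them (51.6%, interval 51.0 to 52.3) and H3K27me3 overlapped 8216 (37.6%, 37.0 to 38.3). Both marks were present at 5815. The 8165 with neither made up 37.4% (36.7 to 38.0), near the 38.9% of all H3K27ac regions that held neither mark. By class that share ran from 28.1% for Tinaja alone and 29.3% for all 3 morphs to 77.6% for surface alone. Tinaja H3K4me3 overlapped 10939 regions, with or without another list, against 4646 for Pachón and 2682 for surface. It was the sole reason to leave out 3121 regions, where each of the other 5 lists was the sole reason for 74 to 399. Without the Tinaja H3K4me3 list the rule kept 11286 of the 21846 regions, so most passed it, although those 3121 hold Tinaja H3K4me3. Most H3K27ac regions of any class also passed it, at 71406 of 140810.

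Members made up 14.9% of the 54777 enhancer-like regions (interval 14.6 to 15.2), a share the rule itself fixes. The class of all 3 morphs held 14672 (26.8%), Tinaja alone 10677 (19.5%), Pachón alone 9430 (17.2%) and surface alone 5945 (10.9%). Among classes with exactly 2 morphs the cave pair stood first, with 3631 regions for surface and Pachón and 2257 for surface and Tinaja. That order rested on how the lists were cut. When each list was shortened to the shortest of its mark by dropping its narrowest peaks, 3456 regions were of the cave pair and 5112 of surface and Pachón. Surface alone then held 12172 regions (25.96%), so its order against the cave pair was also reversed. The surface H3K27ac list was the shortest of its mark and lost no peak, while both cave H3K27ac lists lost their narrowest. What part that had in the reversal was not tested. With the wider 50% of every list, surface alone held 2487 regions. When the wider 50% of every list was kept, the cave pair held 4767 regions against 1230 for surface and Pachón and 1522 for surface and Tinaja. Membership moved as well. Of the members, 2358 (28.9%) were overlapped by a member of the equal-length lists and 1138 (13.9%) by a member of the wider 50%. Both cuts drop narrow peaks, and members were made of peaks narrower than usual. Pachón and Tinaja H3K27ac covered medians of 366 and 361 bp of a member. The median peak widths of their full lists were 474 and 459 bp. Loss of members to these cuts is thus in part by construction. In turn, 68.2% of the 3456 cave-pair regions of equal-length lists overlapped a member of the full lists. For the 4767 of the wider 50% it was 23.9%.

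**Figure D1:**
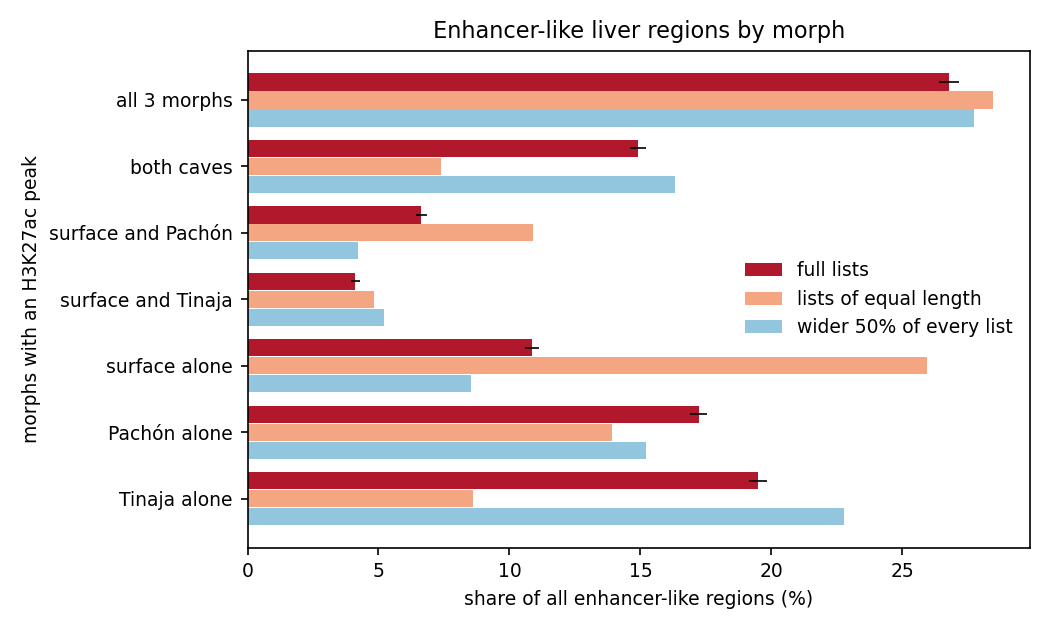
Share of all enhancer-like regions (horizontal axis, %) by the morphs with an H3K27ac peak (vertical axis), for the full lists, lists of equal length and the wider 50% of every list; black lines are exact binomial 95% intervals for the full lists. The cave pair held 14.9%, 7.37% and 16.3% in that order. With lists of equal length it fell below surface with Pachón and below surface alone.

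Members mostly held 1 peak of each cave (98.7%). In width, members lay between regions of 1 morph and those of all 3 morphs. Their median width was 417 bp (interval 413 to 421; quartiles 350 and 534), and widths ran from 207 to 3033 bp. Regions of surface and Pachón had a median of 432 bp and those of surface and Tinaja 435 bp, so the 3 classes of exactly 2 morphs were of similar width. Regions of all 3 morphs were wider, at 603 bp, and those of 1 morph narrower, at 336 bp in surface, 319 bp in Pachón and 311 bp in Tinaja. Members of 1000 bp or more numbered 187 (2.29%), against 16.1% of regions of all 3 morphs. Members under 300 bp numbered 565 (6.92%), against 34.4% of regions of surface alone. A union over more lists is wider by construction, and width was compared without regard to that.

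**Figure D2:**
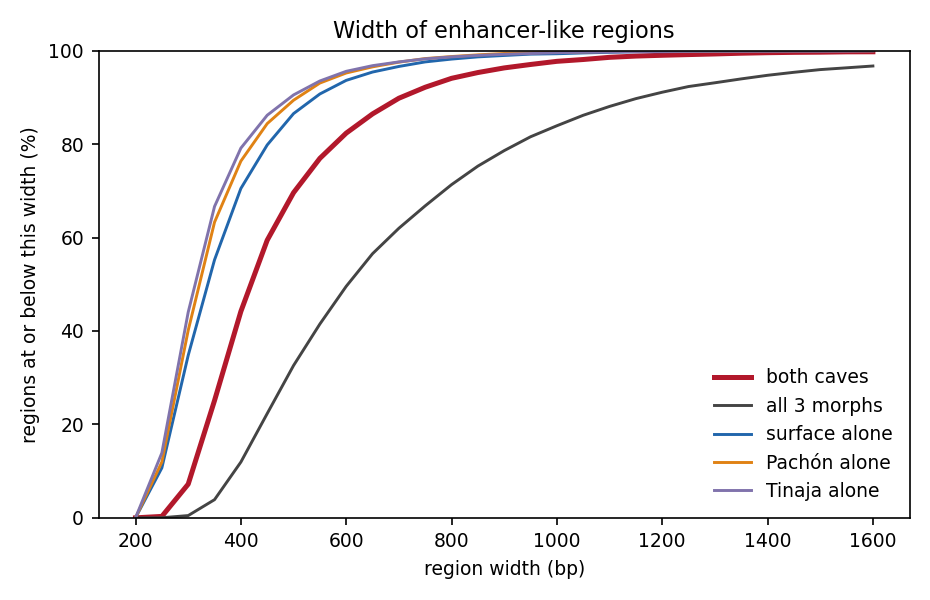
Cumulative share of enhancer-like regions (vertical axis, %) by region width (horizontal axis, bp) for 5 classes of morphs. The cave pair, with a median of 417 bp, lies between the classes of a single morph (311 to 336 bp) and the class of all 3 morphs (603 bp).

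The rule fixes that the peaks of both caves overlap or touch in a member with a single peak of each, so the closeness of these peaks describes the choice. In the 8061 members of that kind the centres of the pair of peaks lay a median of 26.5 bp apart (quartiles 11.5 and 52). In 4637 members (56.8%) the peak of one cave lay wholly inside that of the other, and in 8145 (99.8%) the peaks overlapped by at least 50% of the shorter. Pachón peaks covered a median of 366 bp of a member and Tinaja peaks 361 bp. Pachón covered more in 4118 members, Tinaja in 4015, and both covered the same length in 32. One cave covered over 2 times the length of the other in 368 members (4.51%). Across members the covered lengths of the caves had a Spearman rho of 0.51 and, on the log2 scale, a Pearson r of 0.56 (n = 8165). Members share their libraries and the genome, so these are descriptions.

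The widest placed members show the forms the set takes. On chromosome 13 the widest ran from 26085460 to 26088326 (2867 bp), filled by 1 Tinaja peak, with 2 Pachón peaks covering 2423 bp of it. The nearest surface H3K27ac peak was 2542 bp away and the nearest H3K4me3 peaks were 7787, 7709 and 7690 bp away in surface, Pachón and Tinaja. On chromosome 3, from 15371587 to 15373759, Pachón covered the whole 2173 bp and Tinaja 1460 bp. That region lay farther from surface H3K27ac (33502 bp) and surface H3K4me3 (60869 bp). Surface H3K27me3 was 4095 bp away and Tinaja H3K4me3 5729 bp. On chromosome 8, from 14991909 to 14993761, Pachón covered all 1853 bp and Tinaja 1395 bp, and surface H3K27ac was 24550 bp away. On chromosome 23, from 12961861 to 12963887, Tinaja covered 2027 bp and Pachón 1814 bp, 4059 bp from surface H3K27ac.

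Other wide members lay beside listed surface peaks or were wide in one cave only. On chromosome 10, from 11450745 to 11452864, the caves covered 1867 and 1472 bp in Pachón and Tinaja, and a surface H3K27ac peak lay 205 bp off. H3K4me3 peaks of surface, Pachón and Tinaja lay 575, 688 and 588 bp from that region, so the promoter mark was near it in every morph. On chromosome 6, from 12809430 to 12811649, Tinaja covered 2219 bp and Pachón 1074 bp, with surface H3K27ac at 1508 bp and H3K4me3 of all morphs within 777 bp. On chromosome 7, from 31664955 to 31666815, Tinaja covered 1861 bp and Pachón 265 bp. On chromosome 18, from 28510755 to 28512601, the lengths were 1746 bp in Tinaja and 278 bp in Pachón.

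Most members lay within 5 kb of a listed surface H3K27ac peak, of whatever class. The median gap to the nearest surface H3K27ac peak was 2623 bp (interval 2533 to 2754; quartiles 1046 and 8259). A surface peak lay within 1 kb of 1951 members (23.9%), within 5 kb of 5310 (65.0%), within 10 kb of 6408 (78.5%) and within 50 kb of 7860 (96.3%). Regions of Pachón alone had a median of 3016 bp and those of Tinaja alone 3929 bp, both above that of members. Wider members were not much closer or farther. The median was 2585 bp for members under 300 bp, 2453 bp from 300 to 400 bp, 2762 bp from 400 to 600 bp and 2833 bp above that. This distance uses the lists that chose the members, which fixes only that it exceeds 0. Just inside the rule, 15 members had a surface peak at most 50 bp away, with a median width of 498 bp. Just outside it, a single region of all 3 morphs, 797 bp wide, had surface peaks that overlapped the cave peaks by at most 50 bp. For the other marks, 14 members had a peak at most 50 bp away (median width 433 bp), and 4 cave-pair regions were left out for an overlap of at most 50 bp (400.5 bp). Enhancer-like regions of all 3 morphs hold only a part of the surface H3K27ac peaks, so a longer distance to them follows from that. Members lay a median of 11462 bp from them, and 47.3% of members within 10 kb. That median was 10034 bp for surface alone, 15607.5 bp for Pachón alone and 22677 bp for Tinaja alone. For surface with Pachón it was 5209 bp, and for surface with Tinaja 10097 bp. From members, the median distance to an H3K27ac region with H3K4me3 was 3143 bp.

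The 3 placed members farthest from surface H3K27ac were picked for that distance, and their distances to other marks are given as a description. On chromosome 3, from 32400132 to 32400418, a 287 bp member lay 436125 bp from surface H3K27ac, 23151 bp from surface H3K4me3 and 13414 bp from surface H3K27me3. On chromosome 9, from 39167680 to 39168177, the distances were 285584, 82681 and 24407 bp. On chromosome 6, from 21323491 to 21323998, they were 278094, 60549 and 8851 bp.

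**Figure D3:**
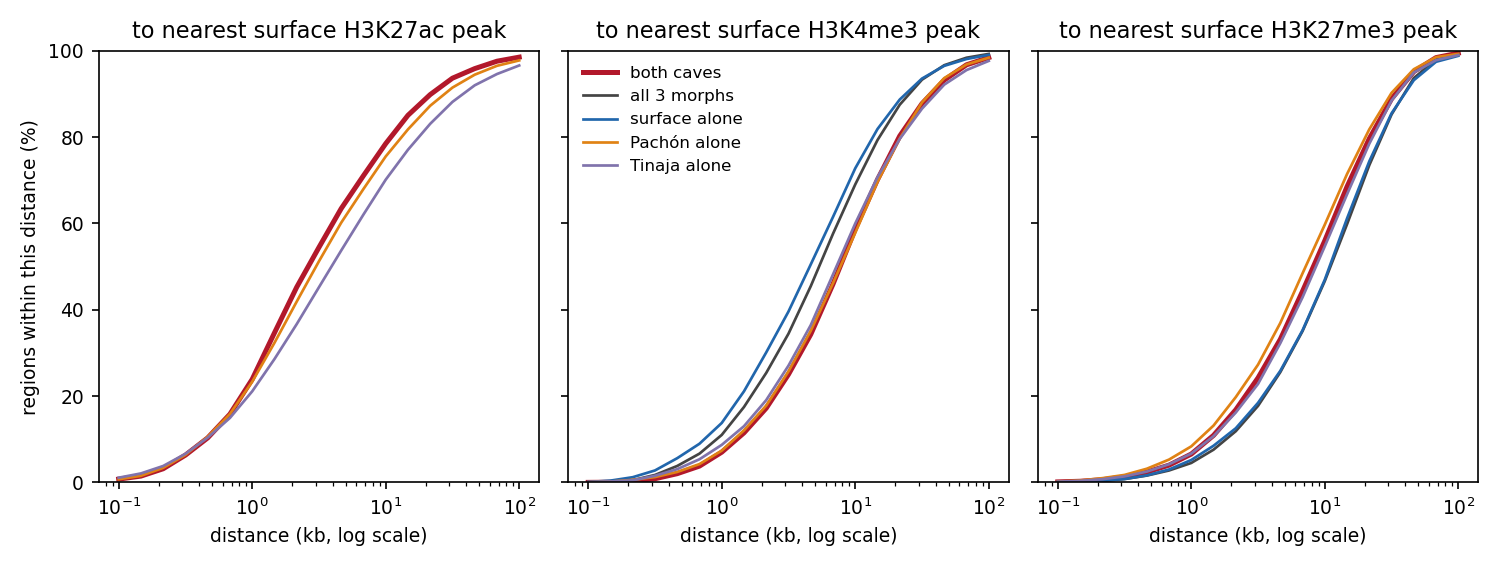
Cumulative share of enhancer-like regions (vertical axis, %) by distance to the nearest surface peak of H3K27ac, H3K4me3 and H3K27me3 (horizontal axes, kb, log scale), by class of morphs; classes with surface H3K27ac are not drawn in the first panel. Members reached surface H3K4me3 at a median of 7639 bp and surface H3K27me3 at 8186 bp, against 5392 and 11006.5 bp for regions of all 3 morphs.

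Members lay farther from H3K4me3 and nearer to H3K27me3 than enhancer-like regions of all 3 morphs did. The nearest surface H3K4me3 peak was a median of 7639 bp away (interval 7419 to 7916), against 5392 bp for all 3 morphs (5251 to 5535) and 4551 bp for surface alone (4365 to 4761). With the Pachón list the medians were 6912, 5211 and 5017 bp, and with the longer Tinaja list 2835, 2354.5 and 2276 bp. Under the rule, members were thus the farthest of the 3 classes with each H3K4me3 list. The rule left regions out by these same H3K4me3 lists and by the H3K27me3 lists. It kept 37.4% of cave-pair H3K27ac regions, 29.3% of those of all 3 morphs and 77.6% of those of surface alone. What part this had in the distances was not tested. Without the Tinaja H3K4me3 list in the rule, members lay a median of 1558 bp from Tinaja H3K4me3. That was nearer than regions of surface alone (2165 bp, a ratio of medians of 0.72). It was still farther than regions of all 3 morphs (1359 bp). This setting takes back regions that overlap Tinaja H3K4me3, at a distance of 0, so these medians are partly set by construction. It took back 3121 regions of the cave pair, while surface alone grew from 5945 to 6129. The nearest surface H3K27me3 peak was 8186 bp from members (7938 to 8470), 11006.5 bp from regions of all 3 morphs (10738 to 11263) and 10888 bp from those of surface alone (10432 to 11229). The Pachón list gave 9703, 12457.5 and 11413 bp and the Tinaja list 9573, 13211 and 12393 bp. Within 5 kb of a member lay surface H3K27me3 in 35.2% of cases, Pachón H3K27me3 in 30.6% and Tinaja H3K27me3 in 32.0%. For regions of all 3 morphs these shares were 27.3%, 24.6% and 23.8%.

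Regions of a single cave had similar distances. Their median distance to surface H3K4me3 was 7699 bp for Pachón alone and 7219 bp for Tinaja alone, and to surface H3K27me3 7214 and 8712 bp. For the classes with surface and 1 cave, the medians were 4575 bp with Pachón and 4971 bp with Tinaja to surface H3K4me3, and 11034 and 10731 bp to surface H3K27me3. These distances thus differed between classes with and without a surface H3K27ac peak, and nothing shows them to be particular to regions that both caves share. Against regions of all 3 morphs, the ratio of medians was 1.42 for surface H3K4me3 (1.31 to 1.61 over 8 alternative settings) and 0.74 for surface H3K27me3 (0.69 to 0.78). The values 1.61 and 0.69 came from leaving out members with surface H3K27ac within 1 kb. That setting left the class of all 3 morphs unchanged. The order against all 3 morphs held in each of the 3 width classes from 300 bp up. At 600 bp and above, members lay 8591.5 bp from surface H3K4me3 against 5707.5 bp for all 3 morphs, and 8021 bp from surface H3K27me3 against 11045 bp. Under 300 bp, where the class of all 3 morphs held 69 regions, the distances to surface H3K27me3 were 8327 and 8388 bp, and to Pachón H3K27me3 the order turned, at 10427 and 10081 bp. No test was made.

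Members lay next to other members more often than their share of enhancer-like regions. Regions of all 3 morphs and of surface alone also lay next to their own class more often than its share, so this was not particular to members. The nearest other enhancer-like region of a member was itself a member in 1731 of 8136 cases (21.3%, interval 20.4 to 22.2), where members are 14.9% of enhancer-like regions. It was of surface alone in 5.46% (4.97 to 5.97), where that class is 10.9%. Next to regions of all 3 morphs, members were nearest in 13.2% (12.6 to 13.7) and surface alone in 10.6%. Their own class was nearest in 37.8%, where it is 26.8% of enhancer-like regions. Next to regions of surface alone, members were nearest in 7.05% (6.41 to 7.73) and surface alone in 24.8%. Members were also often nearest to regions of a single cave, in 19.2% of cases for Pachón alone (18.36 to 19.97) and 16.5% for Tinaja alone (15.8 to 17.2). With lists of equal length a member was next to a member in 13.7% of 3440 cases, where members were 7.37%, and next to surface alone in 13.3%, where that class was 25.96%. These values rest on the same lists as the rule, so shared depth or enrichment along a stretch of a library would appear in them too, and its part was not tested.

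For the promoter mark the classes differed less in the full lists. The nearest H3K4me3 region of a member was of the cave pair in 10.7% of cases (10.1 to 11.4), where the cave pair is 11.95% of H3K4me3 regions in the genome. Next to regions of all 3 morphs it was so in 9.66% (9.19 to 10.2) and next to surface alone in 9.65% (8.91 to 10.4). It was of surface alone next to 3.25% of members, 4.06% of regions of all 3 morphs and 6.79% of those of surface alone, against 3.89% in the genome. Members thus had the highest cave-pair share and the lowest surface-alone share of these 3 classes, although both of their shares lay below those in the genome. Among single-cave classes the cave-pair share was 12.2% for Pachón alone, above that of members, and 9.86% for Tinaja alone. Their surface-alone shares, 3.42% and 3.30%, were near that of members, so a low surface-alone share was not particular to members. In lists of equal length, the nearest was of the cave pair for 10.5% of members (9.50 to 11.6), 6.90% of regions of all 3 morphs and 6.34% of those of surface alone, where it was 9.47% of the genome. The nearest was then of surface alone for 15.3% of members, 18.0% of regions of all 3 morphs and 21.1% of those of surface alone, against 15.2% in the genome. The order of the surface-alone shares of these 3 classes was thus the same with both sets of lists, and their cave-pair shares lay farther apart with equal lengths. With equal lengths, Pachón alone and Tinaja alone had surface-alone shares of 14.7% and 15.3%, and cave-pair shares of 8.72% and 9.08%.

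For the Polycomb mark the 3 classes lay close together. The nearest H3K27me3 region was of surface alone for 21.0% of members (20.1 to 21.9), 21.3% of regions of all 3 morphs and 19.98% of those of surface alone, against 13.7% in the genome. It was of the cave pair for 7.62%, 7.55% and 9.03% in the same order, against 9.98%. A raised share of surface-alone H3K27me3 thus stood next to all of these classes of enhancer-like regions and not to members in particular.

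**Figure D4:**
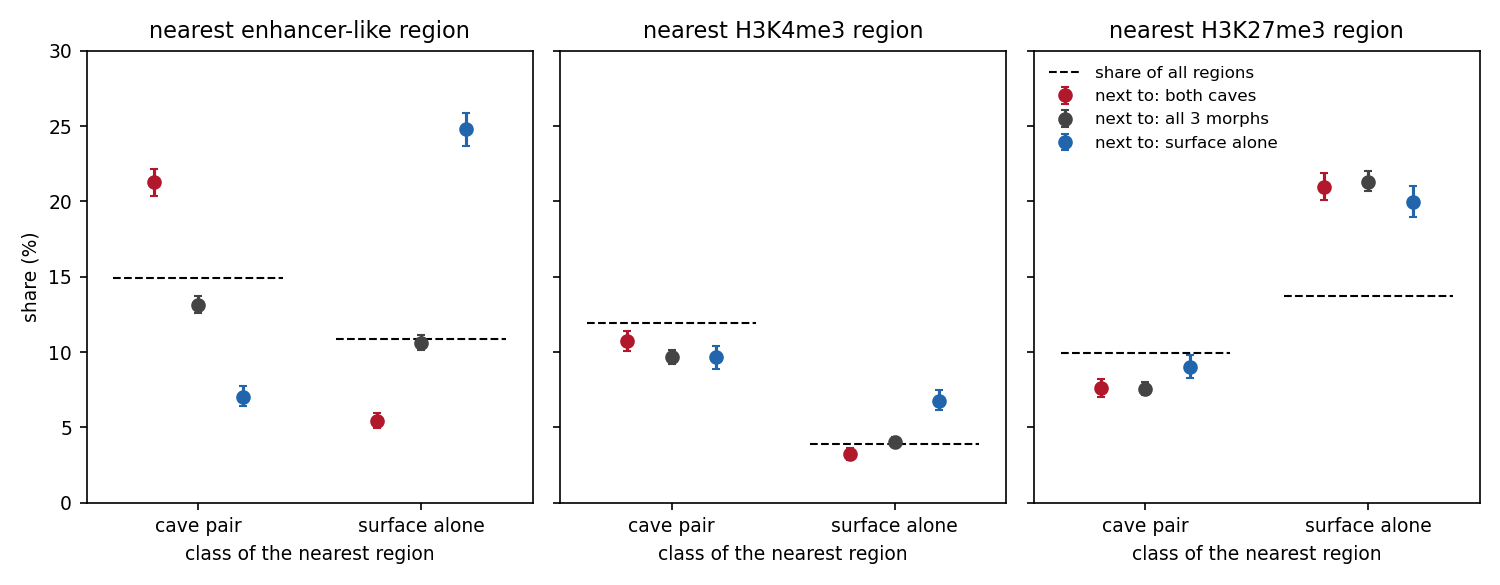
Share of cases (vertical axis, %) in which the nearest enhancer-like, H3K4me3 or H3K27me3 region (panels) was of the cave pair or of surface alone (horizontal axis), for members, regions of all 3 morphs and regions of surface alone; bars are exact binomial 95% intervals and dashed lines the share of that class among all regions. For enhancer-like regions members stand at 21.3% and 5.46%, and for H3K27me3 the 3 sets lie at 19.98% to 21.3% for surface alone.

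Many members came in short runs. Another member lay within 10 kb of 3373 of them (41.3%, interval 40.2 to 42.4). The share was 39.8% for surface alone, 42.9% for Pachón alone and 36.4% for Tinaja alone, although these classes differ in number, and it was 67.0% for the more numerous regions of all 3 morphs. Joined at up to 10 kb, members formed 4792 runs of 1, 964 runs of 2, 245 runs of 3 and 3 runs of 10. The median gap between neighbouring members on a sequence was 40302.5 bp. With H3K27ac peaks up to 1 kb apart merged first, the share with another member within 10 kb was 21.6%.

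Members were spread over all 25 placed chromosomes, which held 6294 of them (77.1%), close to the 77.9% of regions of all 3 morphs. Chromosome lengths were not given, so densities are per Mb up to the end of the last listed peak. Their density ran from 4.02 per Mb on chromosome 21 to 8.18 per Mb on chromosome 5, with a median of 6.77. Their share of enhancer-like regions ran from 12.4% on chromosome 11 (interval 9.77 to 15.5) to 17.7% on chromosome 20 (15.9 to 19.7). Chromosome 13 followed at 17.3% (15.7 to 19.1), and the median chromosome stood at 14.9%. Chromosomes 12 and 21, lowest in density of members at 4.49 and 4.02 per Mb, were also lowest in regions of all 3 morphs, at 7.71 and 8.78 per Mb.

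In windows of 100 kb, members reached up to 12. Of 8561 placed windows with H3K27ac, 3279 held a member, and the 193 windows with 5 or more held 1189 members (18.9% of those placed). On chromosome 16, from 11000001 to 11100000, 12 of 50 H3K27ac regions were members, and the window held 15 surface, 47 Pachón and 40 Tinaja H3K27ac peaks. On chromosome 10, from 6200001 to 6300000, 11 of 36 were members, with 7 surface, 32 Pachón and 25 Tinaja peaks. On chromosome 20, from 18400001 to 18500000, 11 of 30 were members, with 11, 27 and 28 peaks.

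The remaining windows held more of the acetylation common to all morphs. On chromosome 7, from 32400001 to 32500000, 11 of 56 H3K27ac regions were members and 32 were of all 3 morphs, with 44, 55 and 51 peaks. On chromosome 22, from 21800001 to 21900000, 11 of 47 were members and 17 of all 3 morphs. On chromosome 13, from 27800001 to 27900000, 10 of 30 were members and 15 of all 3 morphs, with 17, 28 and 29 peaks. Of these 6 windows, 5 held 0 or 1 H3K27ac region of surface alone, and the window on chromosome 22 held 2. H3K27me3 peaks in surface, Pachón and Tinaja numbered 9, 2 and 3 in the window on chromosome 10, 4, 1 and 1 on chromosome 20, and 4, 0 and 1 on chromosome 7. They numbered 5, 5 and 3 on chromosomes 16 and 13, and 7, 7 and 4 on chromosome 22. Surface thus had more than both caves in 3 of the 6 windows and as many as Pachón in the other 3. The windows were picked for their members, which lack surface H3K27ac by rule. Neither count was made over all windows, so both describe these 6 windows only.

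H3K27ac regions were joined into groups at a fixed distance, such that the widest gap joined was 12498 bp and the narrowest left apart 12501 bp. Groups with members mostly included surface acetylation. There were 4193 groups with a member, of which 3474 held a surface peak and 7336 members (89.8%). The other 719 groups, with 829 members (10.2%), held no surface H3K27ac peak. Of all H3K27ac regions, 12.2% lay in groups without a surface peak, whether or not the group held a member. Of the H3K27ac regions without a surface peak, which alone can do so, 23.3% did. The share was 13.9% for enhancer-like regions of Pachón alone and 17.6% for those of Tinaja alone. In 632 of the 719 groups there was 1 member, in 70 there were 2 and in 17 there were 3 or more. In 237 the member was the only H3K27ac region of the group.

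The placed group without surface acetylation that held most members was on chromosome 18, from 11607914 to 11660029 (52.1 kb), 45.9 kb from the nearest surface H3K27ac peak. It held 8 Pachón and 9 Tinaja H3K27ac peaks in 10 regions, of which 7 were of the cave pair and 5 were members. The members were 466, 697, 473, 393 and 747 bp wide. Pachón covered 463, 614, 375, 393 and 696 bp of them, and Tinaja 465, 506, 210, 245 and 404 bp. Tinaja thus covered less than Pachón in 4 of the 5. The group had H3K4me3 in Tinaja only (2 peaks) and H3K27me3 in all morphs (3 peaks in surface, 5 in Pachón, 3 in Tinaja).

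On chromosome 15, from 30370092 to 30421446 (51.4 kb), a group held 4 members among 11 regions, 28.9 kb from surface H3K27ac. Its 7 Pachón and 11 Tinaja peaks covered 3460 and 4746 bp, and it held H3K4me3 peaks (1 in surface, 1 in Pachón, 5 in Tinaja) and H3K27me3 peaks (2, 2 and 3). On chromosome 14, from 19119474 to 19146904, 4 of 12 regions were members, covering with the rest 5540 bp in Pachón and 5110 bp in Tinaja. Surface H3K27ac lay 13.8 kb from this group, little more than the 12501 bp that was the narrowest gap left between groups. H3K27me3 had 0 peaks in any morph there, and H3K4me3 had 2, 2 and 3 in surface, Pachón and Tinaja. On chromosome 13, from 30094263 to 30168145 (73.9 kb), 12 of 17 regions were of the cave pair and 4 were members, 115.2 kb from surface H3K27ac. H3K4me3 there had 1 peak in surface, 5 in Pachón and 8 in Tinaja, and H3K27me3 had 1, 0 and 0.

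**Figure D5:**
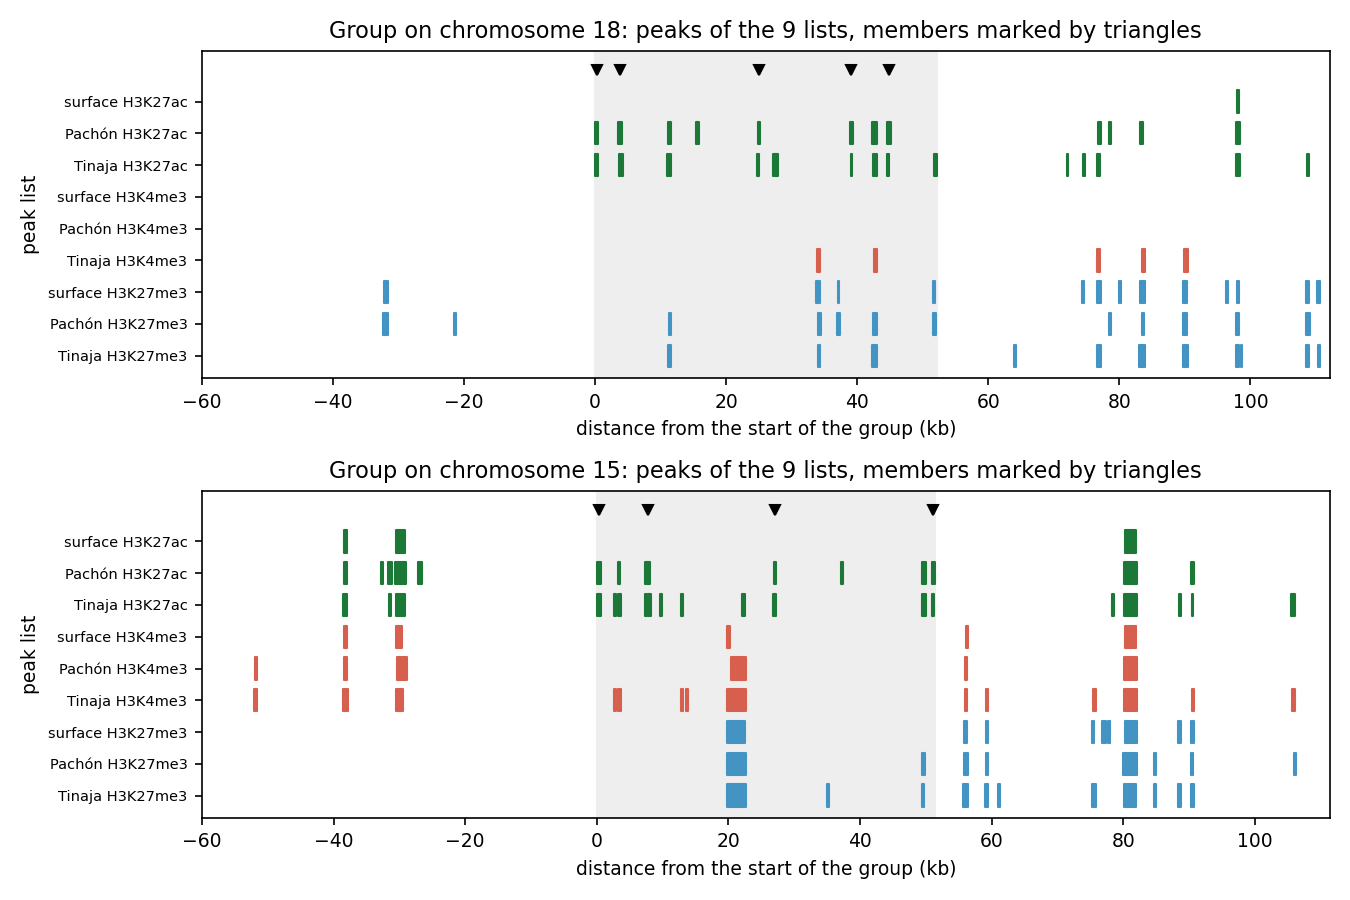
Peaks of the 9 lists (rows) by distance from the start of the group (horizontal axis, kb) for the groups on chromosome 18 and chromosome 15; grey marks the group, triangles mark members, and 60 kb on each side are drawn. Inside the groups the surface H3K27ac row is empty, while the Pachón and Tinaja rows hold 8 and 9 peaks on chromosome 18 and 7 and 11 on chromosome 15.

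Unplaced scaffolds held 1871 members on 390 sequences. On 26 of these, with 29 members (0.36% of all 8165), surface had no H3K27ac peak. Among single-cave classes, 99 of 9430 regions of Pachón alone and 108 of 10677 of Tinaja alone lay on such sequences. Lying on a sequence without surface H3K27ac was thus not particular to members. The scaffold with most members held 101 among 544 enhancer-like regions (18.6%, interval 15.4 to 22.1) and 653 surface H3K27ac peaks. The next held 64 of 366 (17.5%) and 49 of 332 (14.8%). Counted on the placed chromosomes alone, members were 15.1% of enhancer-like regions.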

How the data were processed

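Chromatin of adult livers was immunoprecipitated in 20 libraries, with 6 total chromatin libraries as background, per the labels. Tools listed in the submitters' processing notes are MACS2, SAMtools, Bowtie2 and bcl2fastq 2.20. How these were set, which build was used and how replicates were put together is not given in the sources used. The authors deposited 9 peak lists with position only, and the score the authors deposited is 0 for every peak. Depth is unknown, and reads and total chromatin were not analysed here.

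Positions are counted from 1 in the build of the lists. RefSeq genes were supplied for the assembly AstMex3_surface. Its last gene on chromosome 1 ends at 134 Mb, against 27.0 Mb for the last listed peak. No gene or sequence was therefore read from that assembly. Overlap meant 1 bp or more. Distances are gaps between edges, and a region on a sequence without such a peak ranked as the farthest. Named regions were the 8 widest placed members, the 6 windows of 100 kb with most members, the 4 groups without surface H3K27ac with most members, the 3 members farthest from surface H3K27ac and the 3 scaffolds with most members. Members, lists and rules were chosen with earlier results of these data known. There were no tests and no p-values. Interval arithmetic and the rule were tested on simulated data. Python 3.11.15, NumPy 2.4.6, pandas 2.3.3, SciPy 1.17.1 and Matplotlib 3.10.9 were used.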

Additional observations from a re-analysis of the deposited data

How the results depend on the processing

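Over 5 results and 8 alternatives, 25 values moved beyond the 95% interval of the value reported, or, for the count, by more than 1.5 times, and 15 did not. The cause was not tested, except that each alternative uses fewer, wider or other regions by construction. Leaving out the Tinaja H3K4me3 list was chosen after seeing the data. The count of 8165 was 3456 with lists of equal length, 4767 with the wider 50% of every list and 4888 with peaks up to 1 kb apart merged. The share of enhancer-like regions, 14.9%, was 7.37%, 16.3% and 16.3% (16.25) in that order, 15.4% with no other mark within 1 kb, 11.3% with no surface H3K27ac within 1 kb and 15.8% without the Tinaja H3K4me3 list. The median width, 417 bp, was 567 bp with equal lists, 643 bp with the wider 50%, 446 bp with merging and 429 bp without the Tinaja H3K4me3 list. The median distance to surface H3K27ac, 2623 bp, was 2926, 4412 and 4960 bp with equal lists, the wider 50% and merging, 3134.5 bp with no other mark within 1 kb, 4304 bp with no surface H3K27ac within 1 kb, which sets a floor, and 2792.5 bp without the Tinaja H3K4me3 list. The share with another member within 10 kb, 41.3%, was 26.01%, 31.8%, 21.6%, 35.2%, 33.6% and 47.9% in the same order. Requiring the peaks of both caves to overlap by 50% of the shorter, and placed chromosomes alone, moved none of the 5 results. No replicate could be left out and no paired analysis was possible because each list pools the replicates of its morph and mark.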
